A study of Homo sapiens with 6 samples.

Results

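The 47 genes described here encode the machinery that builds autophagosomes and the receptors that load them, from the ULK kinases to the factors that deliver the vesicle to the lysosome. They were taken by gene symbol from the 50868 genes of the deposited table, in which each symbol had a single row. The test took genes whose counts averaged 10 or more in the 6 libraries, namely 46 of the 47 members and 15953 genes in all. The 1 member left out was MAP1LC3A, an LC3 gene, with 0, 1 and 0 counts in the nitidine chloride libraries and 0 in each DMSO library. RNA came from HEK-293T, a transformed human embryonic kidney line, labelled WT in every sample. The nitidine chloride group received 10 µM nitidine chloride, a plant benzophenanthridine alkaloid, in its medium for 12 h. The DMSO group received medium with DMSO, a common solvent, over the same 12 h. Each group had 3 libraries of mRNA. The series title places the data in a study of mTORC1 signalling and of autophagic degradation of a receptor. Here the question is which genes of the autophagy machinery differed in RNA level between the groups.

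Autophagy encloses cytoplasm in a double membrane and delivers it to the lysosome. When mTORC1 is inactive, the ULK complex starts the process, a class III PI3-kinase complex marks the site with the lipid PI3P, and lipid is supplied to the growing membrane. A pair of ubiquitin-like conjugation systems then attaches ATG8 proteins (LC3 and GABARAP) to the membrane, cargo receptors bind them, and the closed vesicle fuses with the lysosome. Much of this control acts on proteins, and RNA levels do not measure the flux through the pathway.

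The nitidine chloride libraries held between 13273432 and 15620937 counts, against 12688093 to 16357992 in the DMSO libraries. The correlation of log2 CPM between libraries (CPM is the count scaled to a common library total) was 0.987 to 0.991 within groups and 0.933 to 0.94 between groups, across genes. All 6 genes listed as typical of the HEK-293 lineage, among them PAX2, NEFL and KRT18, reached a mean of 10 counts, with a summed level of 465.3 to 489.8 CPM in the nitidine chloride libraries and 404.6 to 421.3 CPM in the DMSO libraries. Of 5 blood cell markers 1 did, with sums of 2.62 to 3.07 CPM after nitidine chloride and 1.72 to 2.38 CPM in DMSO, and CD3E and HBB were listed at 0. Of 4 endothelial markers 1 did, with sums of 4.6 to 5.7 CPM after nitidine chloride and 1.37 to 2.02 CPM in DMSO. Of 5 fibroblast or muscle markers 3 did, with 5.77 to 7.31 CPM after nitidine chloride and 4.6 to 5.6 CPM in DMSO. None of 4 markers of differentiated kidney did, with 0.0731 to 0.301 CPM after nitidine chloride and 0.183 to 0.275 CPM in DMSO, and UMOD was listed at 0. The part of other cells in the results was not tested. No label says that the libraries came from separate cultures, so p-values measure the spread between these libraries only, which may be technical. In bulk RNA, fewer cells with a transcript and less of it per cell cannot be told apart.

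The autophagy genes did not change in one direction. Most cargo receptors among the members and several short core genes were higher after nitidine chloride. Genes of long genomic span such as ATG7, UVRAG and ATG10 were lower. Of the 46 tested members 10 rose after nitidine chloride (21.7%), 16 fell (34.8%) and 20 did not pass; the test was edgeR's quasi-likelihood F-test at a Benjamini-Hochberg adjusted p of 0.05. Over all tested genes 51.7% were called, 24.7% as higher and 27.0% as lower, and the members' 56.5% is near that background. The groups did not overlap for 27 members (58.7%), against 60.7% of all tested genes. The median log2 fold change was -0.06 over the members and 0.01 over all tested genes, with members between -2.54 and 1.68. With counts scaled by library size alone, the median of all genes was 0.12 and 57.9% of calls were higher, against 47.7% with TMM scaling, and the members then split into 13 higher and 13 lower. Directions below are relative to the TMM scale; ± stands for the SD of 3 libraries beside a level and for the SE beside a log2 fold change.

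**Figure D1:**
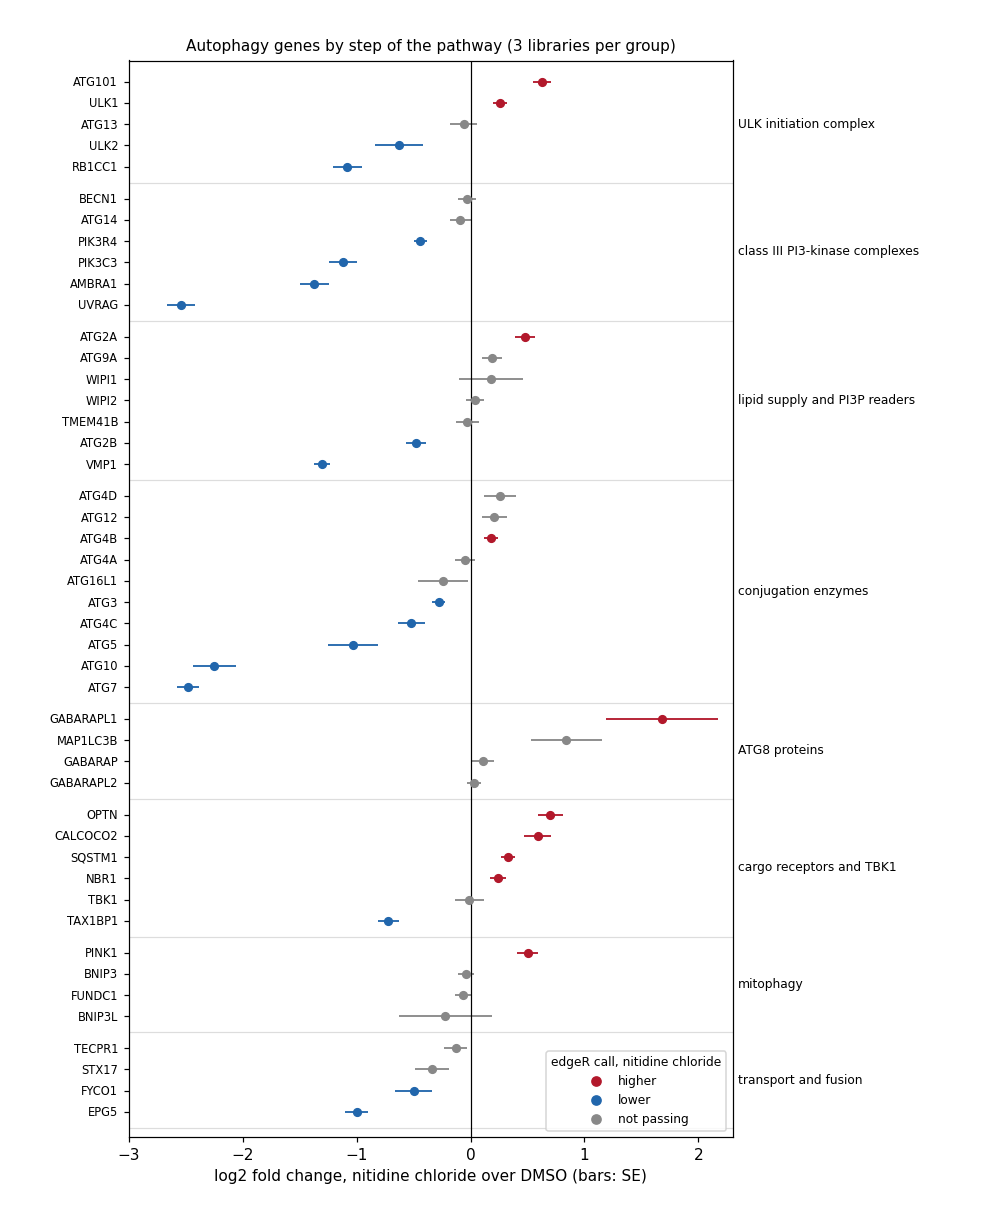
Log2 fold change of the 46 tested autophagy genes, nitidine chloride over DMSO, grouped by step of the pathway, with bars for the SE (3 libraries per group) and colour for the edgeR call. Values run from -2.54 for UVRAG to 1.68 for GABARAPL1, and most steps hold genes on both sides of 0.

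The ULK complex receives the signal from mTORC1. Its 5 genes gave 2 higher, 2 lower and 1 that did not pass. For this and each later step, the background was 24.7% of all tested genes higher and 27.0% lower. Positions here are those of the deposited table, and 44 of the 47 members have the same ones in GENCODE release 29 (GRCh38). ATG101 (chromosome 12 from 52069246 to 52077494), a small stabilising subunit, had 40.7, 41.6 and 39.5 CPM in the nitidine chloride libraries and 27.2, 24.6 and 27.1 CPM in the DMSO libraries. All 3 treated libraries lay above all 3 DMSO libraries, with a log2 fold change of 0.63 ± 0.08 (SE) and an edgeR adjusted p of 4.04e-04. ULK1, the main kinase, had 61.9, 64.0 and 66.8 CPM after nitidine chloride and 53.7, 54.6 and 53.0 CPM in DMSO, again without overlap, a log2 fold change of 0.26 ± 0.06 with an edgeR adjusted p of 0.0118. That p was 0.0518 without DMSO replicate 3. ULK2, its paralogue, averaged 5.54 ± 1.05 CPM after nitidine chloride and 8.59 ± 2.00 CPM in DMSO (SD, n = 3 each), with -0.63 ± 0.21. The edgeR adjusted p of ULK2 was 0.0363. Without DMSO replicate 2 its log2 fold change was -0.40 (edgeR adjusted p = 0.139), without nitidine chloride replicate 2 or 3 it was -0.52 or -0.60 (edgeR adjusted p = 0.112 or 0.0889), and with library size scaling it was -0.53 (edgeR adjusted p = 0.0722).

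RB1CC1, which encodes the scaffold FIP200, lay lowest in the ULK complex. It had 61.1, 49.7 and 71.1 CPM after nitidine chloride and 116.8, 140.7 and 127.3 CPM in DMSO. The groups lay far apart, with a log2 fold change of -1.08 ± 0.13 and an edgeR adjusted p of 3.52e-04. ATG13, the adaptor between the kinase and the scaffold, averaged 68.2 ± 11.6 CPM after nitidine chloride and 71.1 ± 4.14 CPM in DMSO and did not pass (-0.06 ± 0.12).

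None of the 6 genes of the class III PI3-kinase complexes rose, 4 fell and 2 did not pass. Their median genomic span was 100.2 kb, and of all tested genes of 100 kb or more 2.12% rose and 80.4% fell. UVRAG (chromosome 11 from 75815167 to 76143195), the subunit of the complex that acts in endosomal traffic and vesicle maturation, had 3.63, 2.97 and 3.67 CPM after nitidine chloride and 20.1, 19.5 and 20 CPM in DMSO. The replicates of each group lay close together and the groups far apart, with a log2 fold change of -2.54 ± 0.12 and an edgeR adjusted p of 2.70e-06. PIK3C3, the catalytic lipid kinase VPS34, had 13.9, 10.9 and 14.6 CPM after nitidine chloride and 27.7, 28.4 and 29.6 CPM in DMSO, with -1.12 ± 0.12 (edgeR adjusted p = 1.88e-04). Every treated library was thus below every DMSO library for the kinase itself.

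AMBRA1, a regulator that binds Beclin 1, had 18.0, 23.2 and 23.4 CPM after nitidine chloride and 63.4, 51.7 and 52.2 CPM in DMSO, with -1.37 ± 0.13 (edgeR adjusted p = 1.02e-04). A 498 bp gene inside AMBRA1 on the same strand, AC024293.1, held more counts than AMBRA1 in every library, between 7495 and 10494 after nitidine chloride, and did not pass (log2 fold change 0.05), so reads of AMBRA1 could be split there. PIK3R4, the regulatory subunit VPS15, averaged 65.7 ± 1.46 CPM after nitidine chloride and 89.1 ± 1.55 CPM in DMSO, with -0.44 ± 0.06 (edgeR adjusted p = 4.58e-04). The 2 members of the complex that did not pass were BECN1 and ATG14, which targets the complex to autophagosome formation. BECN1, which encodes Beclin 1, had 43.5, 41.1 and 44.8 CPM after nitidine chloride and 43.9, 40.5 and 47.3 CPM in DMSO, a log2 fold change of -0.03 ± 0.08. Its groups overlapped, and 38.6% of its span is shared with PSME3 on the other strand. PSME3 held 4613 to 5758 counts after nitidine chloride and 3211 to 4062 in DMSO. PSME3 rose with a log2 fold change of 0.41 (edgeR adjusted p = 0.00653), and how many reads both genes share was not tested. ATG14 averaged 38.0 ± 2.25 CPM after nitidine chloride and 40.3 ± 3.71 CPM in DMSO.

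Of the 7 genes for lipid supply and for reading PI3P, 1 rose, 2 fell and 4 did not pass. VMP1 (chromosome 17 from 59707192 to 59842255), a lipid scramblase of the endoplasmic reticulum, had 36.6, 37.3 and 36.0 CPM after nitidine chloride and 93.9, 83.1 and 94.6 CPM in DMSO. It fell with a log2 fold change of -1.30 ± 0.07 and an edgeR adjusted p of 6.55e-06, while TMEM41B, the related scramblase, averaged 29.1 ± 2.52 CPM after nitidine chloride and 29.7 ± 1.72 CPM in DMSO. ATG2A and ATG2B encode bridges that carry lipid to the growing membrane, and their calls had opposite signs. ATG2A had 62.8, 74.1 and 60.6 CPM after nitidine chloride and 46.9, 48.4 and 45.9 CPM in DMSO, with 0.48 ± 0.09 (edgeR adjusted p = 0.00304). ATG2B averaged 66.3 ± 5.52 CPM after nitidine chloride and 92.3 ± 6.44 CPM in DMSO, with -0.48 ± 0.09 (edgeR adjusted p = 0.00235). ATG9A, the transmembrane scramblase, WIPI1 and WIPI2, which read PI3P, did not pass, with log2 fold changes of 0.19, 0.18 and 0.04 in this order. WIPI1 held only 27 to 50 counts. AC007780.1 on the other strand covers 100% of the WIPI1 span with 8 to 45 counts and fell (log2 fold change -1.4, edgeR adjusted p = 0.0213). ATG9A passed without nitidine chloride replicate 3 (edgeR adjusted p = 0.0329). The span given for ATG9A in the table includes 9219 bp of ABCB6 on the same strand, and ABCB6 itself rose by 1.10 on the log2 scale, so the count of ATG9A is uncertain.

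The conjugation enzymes held some of the lowest values of the set. Of 10 genes 5 fell, 1 rose and 4 did not pass. ATG7 (chromosome 3 from 11272309 to 11557665), the activating enzyme of both conjugation systems, had 6.15, 5.24 and 6.26 CPM after nitidine chloride and 33.8, 33.0 and 32.0 CPM in DMSO. That is a log2 fold change of -2.48 ± 0.10, with an edgeR adjusted p of 1.59e-06 and a fold of 0.179. ATG10, the conjugating enzyme for ATG12, had 1.33, 1.96 and 1.37 CPM after nitidine chloride and 6.66, 7.75 and 7.93 CPM in DMSO, with -2.25 ± 0.19 (edgeR adjusted p = 5.07e-05). RPS23 on the other strand shares 3500 bp (1.15%) of its span. RPS23 held 6600 to 10981 counts over the libraries, where ATG10 held 19 to 125, and how many reads both share was not tested. ATG5, which receives ATG12, had 17.7, 17.4 and 20 CPM after nitidine chloride and 44.0, 24.3 and 44.0 CPM in DMSO. The groups of ATG5 did not overlap although DMSO replicate 2 lay well below the other DMSO libraries, and its log2 fold change was -1.03 ± 0.22 (edgeR adjusted p = 0.00581).

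The substrate ATG12 and its partner ATG16L1 did not pass. ATG12 averaged 72.5 ± 10.7 CPM after nitidine chloride and 62.5 ± 1.21 CPM in DMSO, and passed without treated replicate 2 (edgeR adjusted p = 0.00355). ATG16L1, which directs the conjugate to the membrane, had 31.2, 32.5 and 53.5 CPM after nitidine chloride and 48.4, 38.7 and 51.0 CPM in DMSO. Replicate 3 of the treated group stood apart, and without it ATG16L1 had a log2 fold change of -0.53 with an edgeR adjusted p of 0.0161. ATG3, the conjugating enzyme for ATG8 proteins, averaged 69.2 ± 3.28 CPM after nitidine chloride and 84.1 ± 1.71 CPM in DMSO, with -0.28 ± 0.06 (edgeR adjusted p = 0.00684); with library size scaling that p was 0.0554.

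The 4 ATG4 proteases, which trim ATG8 proteins before conjugation and release them afterwards, ranged from -0.52 to 0.26. ATG4D had 28.8, 38.0 and 28.4 CPM after nitidine chloride and 28.8, 23.5 and 27.4 CPM in DMSO, the highest log2 fold change of the conjugation genes at 0.26 ± 0.14, but it did not pass. ATG4C averaged 36.8 ± 5.68 CPM after nitidine chloride and 52.8 ± 1.07 CPM in DMSO, with -0.52 ± 0.12 (edgeR adjusted p = 0.00659). ATG4B passed narrowly with 0.18 ± 0.06 (edgeR adjusted p = 0.047), with DESeq2 its adjusted p was 0.102, and it exceeded 0.05 without any library but nitidine chloride replicate 1, up to 0.135 without DMSO replicate 1. ATG4A had -0.05 ± 0.09. By log2 fold change the order was ATG4D, ATG4B, ATG4A and ATG4C, which is also their order by genomic span, 9.5, 36.6, 63.0 and 81.4 kb.

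ATG8 proteins are the ubiquitin-like tags of the autophagosome membrane. None of the 4 tested genes was called lower, 1 was called higher and 3 did not pass. GABARAPL1 (chromosome 12 from 10212458 to 10223130) had 11.4, 45.5 and 47.6 CPM after nitidine chloride and 13.2, 10.8 and 8.63 CPM in DMSO. Treated replicate 1 lay within the DMSO range and the other treated libraries far above it, so the groups overlapped. The log2 fold change was 1.68 ± 0.49 with an edgeR adjusted p of 0.0214, which was 1.82e-04 without treated replicate 1. Without treated replicate 2 or 3 it was 0.0758 or 0.0618, without DMSO replicate 2 or 3 it was 0.0566 or 0.0682, and with limma-voom it was 0.0802.

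MAP1LC3B, the LC3 gene used as the common marker of autophagosomes, had 88.6, 175.7 and 165.8 CPM after nitidine chloride and 65.5, 114.3 and 61.2 CPM in DMSO. Treated replicate 1 was again the lowest of its group, DMSO replicate 2 was the highest of its own, and the groups overlapped. Its log2 fold change of 0.84 ± 0.31 did not pass (edgeR adjusted p = 0.056), and over the alternatives the adjusted p ran from 0.0131 (without DMSO replicate 2) to 0.173; without treated replicate 1 it was 0.0149. MAP1LC3B2, a near-identical retrocopy, averaged 7.36 ± 1.6 CPM after nitidine chloride and 6.10 ± 0.397 CPM in DMSO, so reads could be shared between both. FBXO31 on the other strand covers 39.2% of MAP1LC3B.

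The other GABARAP genes showed no such spread. GABARAP had 67.9, 86.1 and 80.7 CPM after nitidine chloride and 77.1, 66.3 and 74.8 CPM in DMSO, a log2 fold change of 0.11 ± 0.10. GABARAPL2 had 85.8, 89.6 and 84.8 CPM after nitidine chloride and 81.7, 83.7 and 89.8 CPM in DMSO, with 0.03 ± 0.06. Both overlapped between groups and neither passed.

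**Figure D2:**
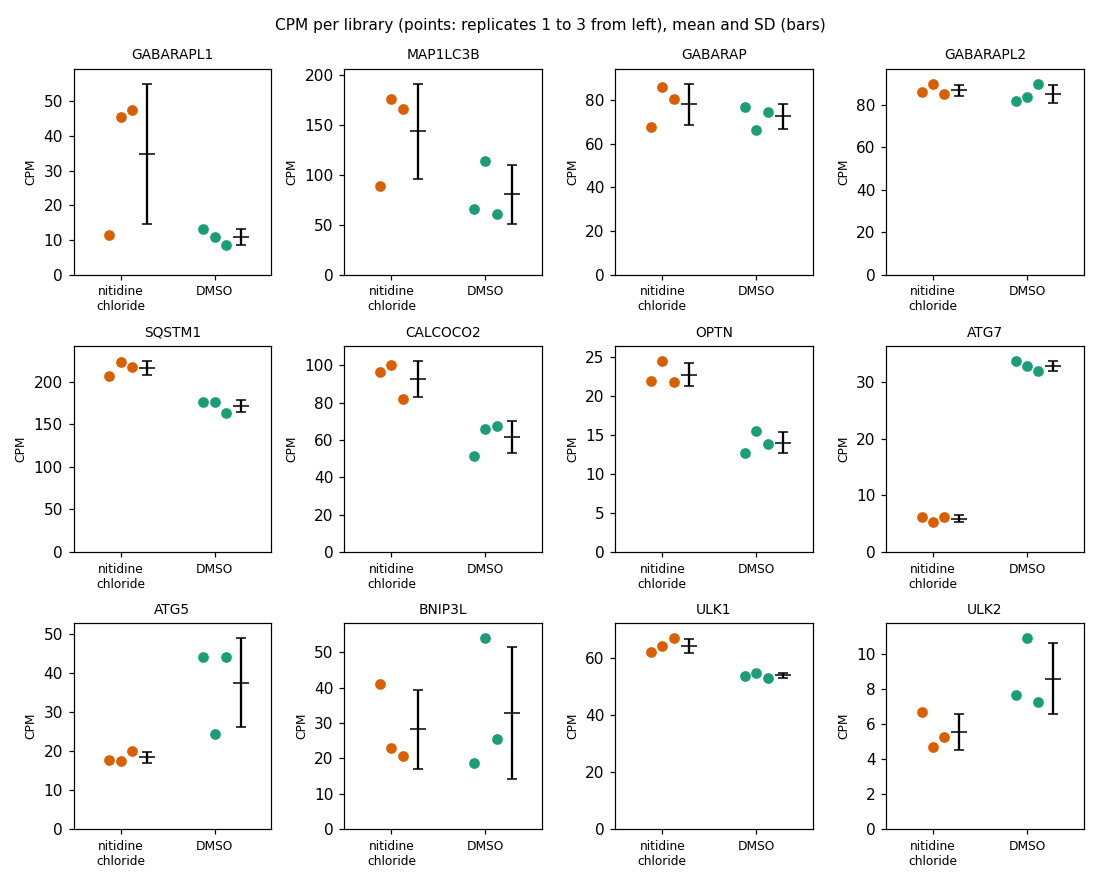
CPM in each library for 12 autophagy genes, nitidine chloride left of DMSO, with points for replicates 1 to 3 and bars for mean and SD. GABARAPL1, MAP1LC3B, ATG5 and BNIP3L spread widely within a group, while ATG7, OPTN and SQSTM1 separate the groups with little spread.

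Most cargo receptors among the members rose. Of 5 receptors and the kinase TBK1, 4 were higher, 1 lower and 1 did not pass. Over all tested genes 24.7% were higher and 27.0% lower. Of 12 other receptors outside the members, all tested, 4 were higher, 3 lower and 5 did not pass. Their median log2 fold change was 0.04. SQSTM1 (chromosome 5 from 179806398 to 179838078), which encodes p62, the receptor for ubiquitinated cargo, had 206.7, 223.4 and 217.4 CPM after nitidine chloride and 175.8, 175.8 and 163.2 CPM in DMSO. The groups did not overlap, and the log2 fold change was 0.33 ± 0.06 (edgeR adjusted p = 0.00297). On the other strand MRNIP and MGAT4B share 9.3% and 1.75% of the SQSTM1 span, and both rose (log2 fold changes 0.50 and 0.35). AC060780.1 shares 1.35% of NBR1 and rose (0.51), while CCDC3 shares 0.525% of OPTN and did not pass (-0.15). How many reads these genes share was not tested. OPTN, a receptor for mitochondria and bacteria, had 22.0, 24.5 and 21.8 CPM after nitidine chloride and 12.7, 15.5 and 13.9 CPM in DMSO, with 0.70 ± 0.11 (edgeR adjusted p = 0.00116). CALCOCO2, which encodes NDP52, averaged 92.7 ± 9.53 CPM after nitidine chloride and 61.5 ± 8.73 CPM in DMSO, with 0.59 ± 0.12 (edgeR adjusted p = 0.00467). NBR1, a receptor that acts with p62, averaged 127.7 ± 6.61 CPM after nitidine chloride and 107.8 ± 5.46 CPM in DMSO, with 0.24 ± 0.07, and its edgeR adjusted p of 0.0181 became 0.0683 without DMSO replicate 1.

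TAX1BP1, a receptor related to NDP52, went the other way. It had 78.3, 66.3 and 77.2 CPM after nitidine chloride and 112.1, 124.2 and 128.0 CPM in DMSO, with no overlap and a log2 fold change of -0.72 ± 0.09 (edgeR adjusted p = 3.28e-04). JAZF1 on the other strand, which shares 13.3% of its span, had a log2 fold change of -3.41 but few counts, 19 to 39 after nitidine chloride and 230 to 308 in DMSO. At 105.2 kb TAX1BP1 is the longest of these 6 genes, and the others span 31.7 to 50.2 kb. TBK1, the kinase that phosphorylates receptors, averaged 47.8 ± 8.90 CPM after nitidine chloride and 48.3 ± 0.861 CPM in DMSO, and did not pass.

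Among mitophagy genes 1 of 4 rose and 3 did not pass. PINK1, the kinase that marks damaged mitochondria, had 64.6, 79.1 and 66.8 CPM after nitidine chloride and 49.4, 51.5 and 48.2 CPM in DMSO, with a log2 fold change of 0.50 ± 0.09 and an edgeR adjusted p of 0.00271. The antisense gene PINK1-AS covers 49.0% of its span and did not pass (log2 fold change -0.16), and without strand information reads of both cannot be told apart. BNIP3 and FUNDC1, receptors in the outer mitochondrial membrane, had log2 fold changes of -0.04 and -0.07. BNIP3L, which encodes NIX, had 41.1, 23.0 and 20.6 CPM after nitidine chloride and 18.7, 54.0 and 25.6 CPM in DMSO. Its replicates differed more than its groups, the log2 fold change was -0.22 ± 0.41, and without DMSO replicate 2 it was 0.37.

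Of 4 transport and fusion genes 2 fell and 2 did not pass. EPG5, a tether between autophagosomes and late endosomes, had 16.5, 20.3 and 16.5 CPM after nitidine chloride and 35.3, 36.1 and 35.0 CPM in DMSO, with a log2 fold change of -1.0 ± 0.10 (edgeR adjusted p = 1.47e-04). FYCO1, a kinesin adaptor, averaged 33.2 ± 4.74 CPM after nitidine chloride and 46.8 ± 9.48 CPM in DMSO, with -0.50 ± 0.16. The edgeR adjusted p of FYCO1 was 0.0367, and it lay above 0.05 without any library but DMSO replicate 3. Without DMSO replicate 1 the log2 fold change was -0.32 (edgeR adjusted p = 0.102), without nitidine chloride replicate 2 it was -0.38 (0.107), and with library size scaling it was -0.39 (0.089). Without DMSO replicate 2, nitidine chloride replicate 1 or nitidine chloride replicate 3 it lay between -0.52 and -0.56. TECPR1, a tethering factor, had 27.9, 29.6 and 25.6 CPM after nitidine chloride and 33.0, 28.8 and 29 CPM in DMSO, and overlapped between groups. STX17, the fusion syntaxin, had -0.34 ± 0.15 and did not pass, although its edgeR adjusted p was 0.0437 without nitidine chloride replicate 1.

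The direction of the calls followed the genomic span of the gene, the distance from its start to its end in the table with introns included. The members that rose spanned 8.2 to 41.2 kb, with a median of 30.1 kb, and those that fell spanned 29.5 to 328.0 kb, with a median of 121.6 kb. Members that did not pass spanned 2.8 to 122.7 kb. Of 11 members of 100 kb or more 10 fell and none rose, where 80.4% of all tested genes of that class fell and 2.12% rose. The exception was BNIP3L. Of 10 members between 50 and 100 kb 5 fell and none rose, against 39.8% and 10.5% of all genes of the class. Of 15 members between 20 and 50 kb 7 rose and 1 fell, against 30.8% and 12.2% of all genes. The 1 that fell was ATG3. Of 10 members under 20 kb 3 rose and none fell, against 35.8% and 8.80%. Class medians ran, from the shortest class to the longest, 0.20, 0.18, -0.39 and -1.12 for the members and 0.22, 0.13, -0.21 and -1.10 for all tested genes.

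**Figure D3:**
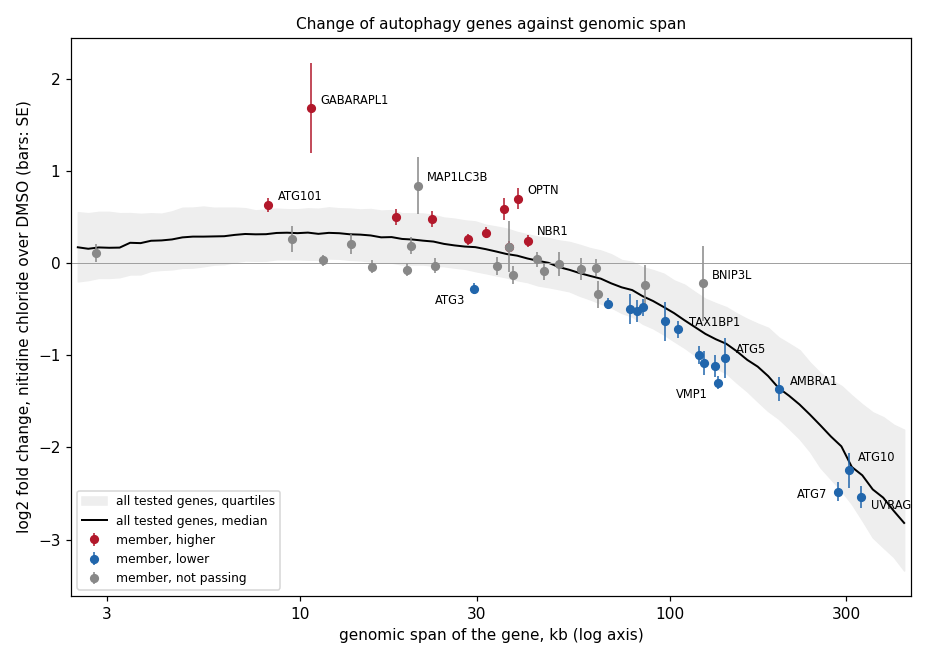
Log2 fold change of each tested autophagy gene (points, bars for SE, colour for the edgeR call), nitidine chloride over DMSO, against genomic span in kb on a log axis, with the median (line) and quartiles (band) of all tested genes of similar span. The members run along the median line, from a median of 0.20 under 20 kb to -2.54 for UVRAG at 328.0 kb, and GABARAPL1 stands above it.

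Across the 46 members the Spearman correlation between span and log2 fold change was -0.85, and across all tested genes it was -0.47. These are correlations across genes, which share the same libraries. Other properties of the members ran less closely with the change: the correlation was -0.33 for the length of the merged exons, -0.34 for the number of exons in the transcript with most exons, and 0.13 for the FPKM in DMSO.

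Each member was also set beside all tested genes whose span was within a factor of 0.8 of its own in either direction. Of the 46 members 41 lay within 0.5 of that median on the log2 scale, 28 lay below it and 18 above it, and the median difference was -0.09. For UVRAG the median of similar genes was -2.30, for ATG10 it was -2.18 and for AMBRA1 -1.36, so their log2 fold changes of -2.54, -2.25 and -1.37 lay within 0.5 of it. The 5 members farther than 0.5 from the median were GABARAPL1 (1.36 above), OPTN (0.62 above), MAP1LC3B (0.59 above), BNIP3L (0.53 above) and ATG7, whose -2.48 stood against -1.96 for similar genes. CALCOCO2 was 0.48 above, and VMP1 at -1.30 stood against -0.84.

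**Figure D4:**
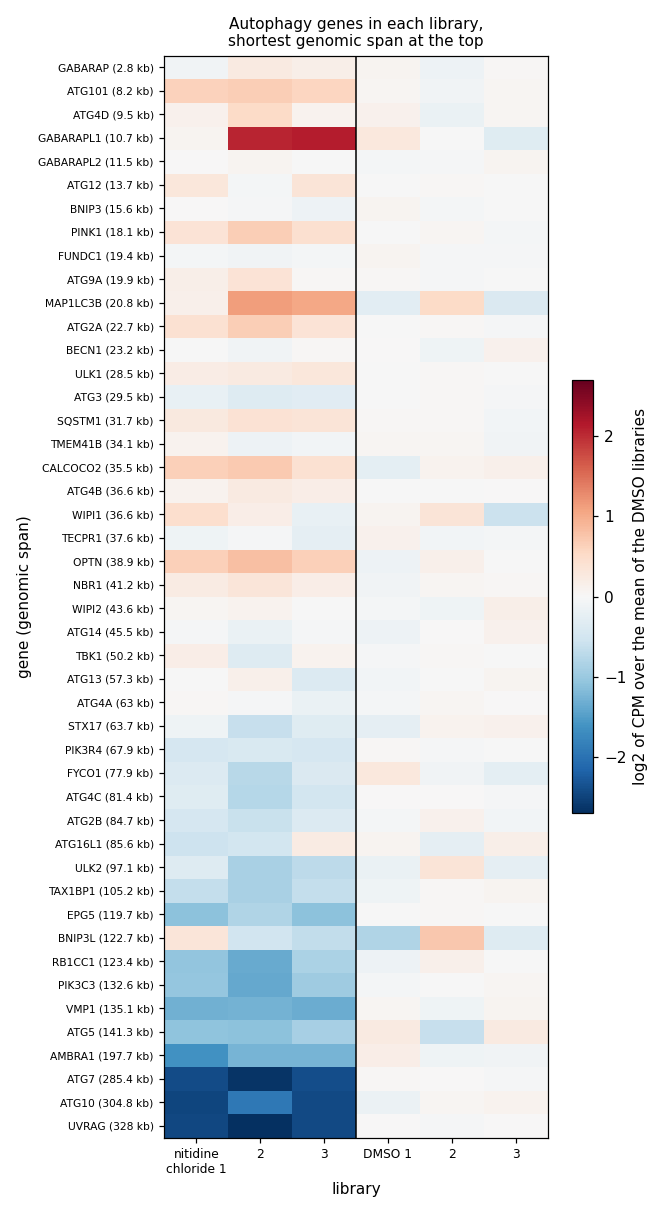
Log2 of CPM in each library over the mean of the DMSO libraries for the 46 tested autophagy genes, ordered by genomic span with the shortest at the top, nitidine chloride libraries left of DMSO libraries. All 3 nitidine chloride libraries are low for the longest genes, and GABARAPL1, MAP1LC3B, ATG5, ATG16L1 and BNIP3L show single libraries that differ from the rest of their group.

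Paralogues allow the comparison within a library, where the ratio of counts needs no scaling. These ratios were not among the planned comparisons. They use the same counts as the fold changes above and are not independent of them. The ratio of ULK1 (28.5 kb) to ULK2 (97.1 kb) was 9.22, 13.7 and 12.7 in the nitidine chloride libraries and 7.03, 5.02 and 7.32 in the DMSO libraries. The ratio of ATG2A (22.7 kb) to ATG2B (84.7 kb) was 0.935, 1.23 and 0.85 after nitidine chloride and 0.528, 0.486 and 0.52 in DMSO. The shorter gene of each pair thus gained on the longer in every treated library, by 0.88 and 0.96 on the log2 scale. The ratio of ATG4D to ATG4C differed by 0.78 and that of ATG4B to ATG4A by 0.23 in the same direction, without overlap between groups. For BNIP3 (15.6 kb) and BNIP3L (122.7 kb) the difference was 0.09 and the groups overlapped. In exact two-sided permutation tests the first 4 pairs had p = 0.1, the smallest p that 3 against 3 libraries allow, and p = 0.125 adjusted over the 5 pairs, so none can pass 0.05.

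Levels between genes were compared per length. Ranked by DMSO, the highest members in the deposited FPKM were FUNDC1, GABARAPL2, GABARAP and BNIP3. FUNDC1 had 20.2 ± 0.818 FPKM after nitidine chloride and 19.7 ± 0.792 in DMSO, and GABARAPL2 had 20.7 ± 0.224 FPKM after nitidine chloride and 18.9 ± 0.964 in DMSO. GABARAP had 19.5 ± 2.11 FPKM after nitidine chloride and 16.9 ± 1.27 in DMSO, and BNIP3 had 15.1 ± 0.754 FPKM after nitidine chloride and 14.4 ± 0.638 in DMSO. The ranges of mean ± SD of FUNDC1 and GABARAPL2 overlapped in both groups. In DMSO the lowest tested member was WIPI1, with 0.432 ± 0.0958 FPKM after nitidine chloride and 0.359 ± 0.111 in DMSO. After nitidine chloride ATG10 and UVRAG were lower still, with 0.202 and 0.283 FPKM, against 0.905 and 1.52 in DMSO. The length behind these FPKM equalled the summed length of all distinct exons of GENCODE release 29, overlapping exons counted again, for 42 of the 44 members whose position is the same there. That length was 1.02 to 3.84 times the merged exons, so the order of members depends on which length is used. With counts scaled to library total and divided by merged exon length, as FPKM is built, the order in DMSO began with GABARAP (30.9 ± 2.32), FUNDC1 (29 ± 1.17), GABARAPL2 (27.0 ± 1.38), SQSTM1 and ATG9A (20.1 ± 0.391). The place of ATG9A is uncertain, because its position differs from release 29. Its FPKM length was 14821 bp, against 10242 bp of summed exons there, so the merged length of 4724 bp may not match its counts. On that scale SQSTM1 had 29.2 after nitidine chloride and 21.6 ± 0.908 in DMSO. GABARAPL1, with the ratio of 3.84, had 8.80 per kb after nitidine chloride and 2.56 in DMSO.

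The promoters of the members were searched for letters bound by factors known for autophagy or stress genes. RefSeq windows from 250 bases before to 50 bases after the start (GRCh38.p14) were at hand for 39 of the 47 members, 48 windows in all. The E-box CACGTG, bound by the TFEB family among others, stood in the windows of 4 members, ATG14, ATG3, TBK1 and BNIP3 (10.3%, against 8.77% of 27305 genes). Its extended form TCACGTGA, which contains an E-box, stood in ATG3 alone (2.56% against 1.18%). The ATF4 form TGATGNAA was in none (against 4.46%), and the antioxidant form TGACNNNGC was in 4 (10.3% against 16.1%), ATG101, MAP1LC3B, CALCOCO2 and TECPR1. Both strands were searched, and a match is a description of letters, not a binding site. Windows of a member that fell (ATG3) and of 2 that rose (ATG101 and CALCOCO2) are given 5′ to 3′ on the strand of the gene, with the matches in capitals, to show what was found on each side. They lie at chr3:112561913-112562212 (minus strand), chr12:52069728-52070027 (plus) and chr17:48830785-48831084 (plus).
ATG3: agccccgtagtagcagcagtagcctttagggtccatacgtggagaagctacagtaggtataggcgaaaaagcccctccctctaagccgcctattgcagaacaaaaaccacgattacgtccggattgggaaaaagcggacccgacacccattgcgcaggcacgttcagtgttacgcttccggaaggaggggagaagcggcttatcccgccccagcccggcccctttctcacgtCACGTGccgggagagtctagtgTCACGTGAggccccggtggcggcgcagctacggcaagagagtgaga
ATG101: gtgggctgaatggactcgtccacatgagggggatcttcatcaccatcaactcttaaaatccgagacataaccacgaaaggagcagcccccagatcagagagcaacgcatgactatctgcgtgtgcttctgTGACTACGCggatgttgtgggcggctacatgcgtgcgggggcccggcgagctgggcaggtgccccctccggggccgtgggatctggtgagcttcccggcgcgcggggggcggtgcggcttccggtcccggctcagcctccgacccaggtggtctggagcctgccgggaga
CALCOCO2: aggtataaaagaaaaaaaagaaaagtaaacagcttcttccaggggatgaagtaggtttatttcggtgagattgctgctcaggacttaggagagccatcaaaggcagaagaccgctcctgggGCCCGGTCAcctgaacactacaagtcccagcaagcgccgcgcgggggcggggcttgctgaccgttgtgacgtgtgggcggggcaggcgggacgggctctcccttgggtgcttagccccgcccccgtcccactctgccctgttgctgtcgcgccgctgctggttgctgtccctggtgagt

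In ATG3 one E-box lies just before the start and one just after it, inside the extended form. In ATG101 the antioxidant form begins at position -120 from the start, and in CALCOCO2 it begins at -129, on the other strand. Of the members with a window, 2 of 9 that rose, 0 of 13 that fell and 2 of 17 that did not pass held the antioxidant form. The E-box was in 0, 1 and 3 of the same groups.

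Another 48 autophagy genes that are not among the members were read from the same fit, chosen as further core genes, receptors, fusion factors and regulators. Of 46 tested, 17 rose, 10 fell and 19 did not pass, with a median log2 fold change of 0.14; over all tested genes 24.7% rose and 27.0% fell, with a median of 0.01. With library size scaling 21 rose and 10 fell. The highest was ATG9B, a paralogue of ATG9A, with 2.66, 3.10 and 3.52 CPM after nitidine chloride and 0.904, 0.996 and 1.14 CPM in DMSO, a log2 fold change of 1.59 ± 0.21 (edgeR adjusted p = 5.39e-04). DDIT3, the stress transcription factor CHOP, had 18.6, 34.0 and 19.0 CPM after nitidine chloride and 7.15, 9.81 and 7.93 CPM in DMSO, with 1.52 ± 0.26 (edgeR adjusted p = 0.0019). TP53INP2, a nuclear protein that binds ATG8 proteins, had 35.6, 37.3 and 31.4 CPM after nitidine chloride and 16.8, 16.8 and 16.6 CPM in DMSO, with 1.06 ± 0.09 (edgeR adjusted p = 6.05e-05). All 3 span under 20 kb, and their groups did not overlap.

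At the low end stood 3 genes of over 200 kb. WDFY3, which encodes the aggregate adaptor ALFY and spans 296.8 kb, had 13.6, 14.8 and 13.4 CPM after nitidine chloride and 82.8, 88.8 and 84.2 CPM in DMSO, with -2.61 ± 0.08 (edgeR adjusted p = 6.01e-07) beside a median of -2.04 for genes of like span. MITF, a relative of TFEB, had 5.03, 2.34 and 2.80 CPM after nitidine chloride and 7.07, 8.89 and 18.6 CPM in DMSO, with -1.78 ± 0.43 (edgeR adjusted p = 0.00967); DMSO replicate 3 stood above the other DMSO libraries. VPS41, a subunit of the fusion complex HOPS, had 28, 26.8 and 30.1 CPM after nitidine chloride and 75.9, 67.3 and 69.7 CPM in DMSO, with -1.33 ± 0.08 (edgeR adjusted p = 9.79e-06). Genes of like span had a median of -1.58 for MITF and -1.44 for VPS41. The 12 transcription factors and regulators among these genes gave 5 higher, 3 lower and 4 that did not pass. Of these, TFEB did not pass (0.06 ± 0.13) and TFE3 rose with 0.36 ± 0.07 (edgeR adjusted p = 0.00278). For TFE3 the median of genes of like span was 0.30. FOXO1 fell with -1.03 ± 0.09 (edgeR adjusted p = 4.60e-05) and FOXO3 with -0.59 ± 0.06 (edgeR adjusted p = 1.48e-04). For these, genes of like span had medians of -0.64 and -0.77.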

How the data were processed

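The deposited table gave raw read counts and FPKM per gene for each library, per the file headers; the counts are whole, and library totals differ. The authors' FPKM relate counts to gene length and library total, per the file headers. The submitters' processing notes list HISAT2 2.0.4 and StringTie 1.3.0, with no roles. The counting tool, its strand setting, the genome build and its annotation: not given in the sources used here. Of 50111 gene identifiers present in both, 47538 had the positions of GENCODE release 29 (GRCh38).

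Counts were scaled with TMM and tested with edgeR 4.0.16 (R 4.3.3), quasi-likelihood, nitidine chloride against DMSO, for genes averaging 10 or more counts, with Benjamini-Hochberg adjustment over all 15953 genes. The threshold was an adjusted p of 0.05. CPM are after TMM scaling. Each SE is the absolute log2 fold change over the root of its F statistic. The test was checked on simulated data. Genes of similar span are all tested genes within a factor of 0.8 in either direction. The members and lists were chosen with earlier results of these data known. Values in every library are given for the highest and lowest member of each step, the ATG8 genes, members with a log2 change of at least 1 in size, and SQSTM1, BECN1, ULK1 and OPTN; of the other autophagy genes, the 3 highest and 3 lowest that passed. Genes named beyond this rule were chosen after their values were seen. Alternatives were a replicate block, single libraries left out, DESeq2 1.42.0, limma-voom (limma 3.58.1), library size scaling, other count filters and a threshold of 0.01. Plots were drawn with matplotlib 3.10.9.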

Additional observations from a re-analysis of the deposited data

How the results depend on the processing

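Of 551 values (46 members, 12 settings), 492 kept direction and call, 29 lost a call, 11 gained one and 19, all of members that had not passed, changed sign. Both direction and call stayed the same under all of these settings for 23 members. Of the 26 called members 7 lost their call under some setting. Counts of called members ran from 23 to 27 without single libraries. Of all tested genes 8250 were called, against 7074 to 7813 without single libraries, 7751 with DESeq2, 8242 with limma-voom and 8870 with library size scaling. At an adjusted p of 0.01, 2616 of all 15953 tested genes were higher and 3377 lower, and of the 46 members 6 were higher and 14 lower. Leaving out the members overlapped by another counted gene left 25 tested, of which 14 were called (56.0%, against 56.5% of the 46), 5 higher and 9 lower. Leaving out members with a CV above 25% (chosen after seeing the data) left 24 called members, 9 higher and 15 lower. The median log2 difference in member level was 0.04 in FPKM and per merged exon length (added after seeing the data), and -0.07 in CPM. Gene length cancels in a difference between groups, so FPKM and merged exon length had to give the same value. CPM differ from both by the TMM scaling. With library size scaling, log2 fold changes changed sign for ATG13 (0.04), BECN1 (0.08), ATG14 (0.02), TMEM41B (0.08), ATG4A (0.05), TBK1 (0.09), BNIP3 (0.06) and FUNDC1 (0.04), and with a mean count of at least 50 for TBK1 (0.00). Without single libraries the ranges were -0.17 to 0.07 for ATG13, -0.06 to 0.03 for BECN1, -0.06 to 0.42 for WIPI1, -0.10 to 0.02 for TMEM41B, -0.10 to 0.00 for ATG4A, -0.12 to 0.13 for TBK1 and -0.59 to 0.37 for BNIP3L. The cause was not tested.

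No label says whether libraries of the same replicate number were prepared together. Deviations of same-numbered libraries correlated by 0.00138, -0.05498 and 0.04028, and not every library correlated best with its own number. These correlations across all tested genes were small. They cannot tell whether some genes share an effect by replicate number, nor how the libraries were prepared. The replicate block gave 24 called members (9 higher, 15 lower) and 7555 called genes; ULK2, ATG4B and GABARAPL1 did not pass in it (edgeR adjusted p = 0.0677, 0.106 and 0.0593) and MAP1LC3B did (0.0176). The SE of the log2 fold change was 0.28 for WIPI1 and 0.21 for ULK2, both at low counts, and 0.49 for GABARAPL1, whose replicates differed.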
